A study of Mus musculus with 10 samples.

Results

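The constant region genes of the immunoglobulins were examined in the cochlea of 12-month-old mtKeima mice, together with Jchain, the gene of the joining chain. The group holds 10 genes of the 54532 in the deposited counts: Ighm, Ighd, Igha, Ighg1, Ighg2b, Ighg2c and Ighg3 for the heavy chains, Igkc and Iglc1 for the light chains, and Jchain. It covers 9 of the 13 genes that the files class as immunoglobulin constant genes. The genes were found by symbol, and the group was chosen because Ighm was lower in every mouse given nicotinamide riboside (NR) than in every mouse that was not. The difference between the groups is therefore given for these genes as a description, with no test.

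NR is a precursor of NAD+, and the study asked how its long-term oral intake alters the transcriptome of the ageing cochlea. NR was given to 5 mice in the drinking water, at 7 mg/ml or 24 mM, starting at 2 months of age and lasting 10 months, while regular water was given to the 5 Vehicle mice. All 10 mice carry mtKeima, a transgene for a pH-dependent fluorescent protein in mitochondria, on a mixed genetic background, and the labels give their sex as female while the paper's methods describe male mice for the cochlear RNA. Each mouse gave 1 library of poly(A) RNA from cochlear tissue, and the p-values below measure the spread between these mice.

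An antibody is built from 2 identical heavy chains and 2 identical light chains, and the constant region of the heavy chain sets its isotype. A B cell that has not met antigen transcribes Ighm and Ighd from one primary transcript and makes IgM and IgD. After class switching, the same rearranged variable segment is joined to an IgG, IgA or IgE constant region further along the locus. Plasma cells secrete antibody and hold far more immunoglobulin mRNA per cell than B cells do. The joining chain links the IgM pentamer and the IgA dimer.

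In the mm10 build, the 7 heavy chain genes lie on the minus strand of chromosome 12, and transcription passes Ighm (chr12:113418558-113422730) first. Ighd follows at chr12:113406604-113416324, then Ighg3 at chr12:113356224-113361232, Ighg1 at chr12:113325240-113330523, Ighg2b at chr12:113302965-113307933 and Ighg2c at chr12:113285325-113288932, and Igha at chr12:113254830-113260236 is the last. Igkc is at chr6:70726435-70726966 on the plus strand, Iglc1 at chr16:19061618-19062071 and Jchain at chr5:88519809-88527891, both on the minus strand. These positions were the same in the GENCODE annotation, in which no other gene overlapped an exon of the 10.

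The isotypes that the joining chain binds can be told from IgG in the coding sequence. The last 60 coding bases of each secreted heavy chain are listed 5′ to 3′ on the coding strand, without the stop codon. Capitals mark GGTAAA, the bases with which each IgG sequence ends and which Ighm and Igha also hold, and the TGC cysteine codon that is next to last in Ighm and Igha. In IgM and IgA this tail carries the cysteine used in building the polymer.
Ighm, chr12:113420870-113420929: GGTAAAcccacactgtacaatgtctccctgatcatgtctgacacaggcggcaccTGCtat
Igha, chr12:113258771-113258830: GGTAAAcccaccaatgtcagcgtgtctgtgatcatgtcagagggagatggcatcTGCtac
Ighg1, chr12:113328979-113329038: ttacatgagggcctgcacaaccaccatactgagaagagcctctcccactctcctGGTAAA
Ighg2b, chr12:113306392-113306451: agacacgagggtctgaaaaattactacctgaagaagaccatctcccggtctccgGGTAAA
Ighg2c, chr12:113287392-113287451: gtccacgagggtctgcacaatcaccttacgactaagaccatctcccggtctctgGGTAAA
Ighg3, chr12:113359668-113359727: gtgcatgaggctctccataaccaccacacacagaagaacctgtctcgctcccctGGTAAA

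Ighm and Igha had the same base at 41 of these 60 positions. The IgG tails end at GGTAAA and are offset from these, so their bases were not matched to them. Over the whole coding sequence, the IgG genes had an identity between 76.1% and 85.9% with each other, and Ighg2b and Ighg2c were the closest pair. Reads of these genes could in principle be split between copies. Of all windows of 50 bases in the annotated transcripts, 5.49% in Ighg2c, 4.15% in Ighg2b, 1.58% in Ighg3, 0.393% in Ighg1 and 0.288% in Jchain also occurred in another gene, while the share was 0% for Ighm, Ighd, Igha, Igkc and Iglc1. No window of 100 bases in the 10 genes was shared.

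The total count per library was 17060379 to 22931581 in NR mice and 20004667 to 24419230 in Vehicle mice. Levels are given as CPM, reads per 1000000 of the library after TMM scaling, and edgeR tested 18329 genes. The cochlear label held, since all 14 genes of a cochlear list passed the filter, and Coch alone was at 2612 CPM in NR and 2981 CPM in Vehicle mice. Blood and marrow genes were also high, with Hbb-bs at 4682 CPM in NR and 4966 CPM in Vehicle mice. No gene passed an adjusted p of 0.05 in edgeR (0% of those tested, smallest adjusted p = 0.224), an unadjusted p of 0.05 was passed by 886 genes with higher and 894 with lower levels in NR mice, and DESeq2 called 102 of 19633 genes (0.52%) at an adjusted p of 0.05.

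All 10 genes passed the filter on low counts, and all 10 had a log2 fold change (NR minus Vehicle) below 0, from -1.56 for Ighm to -0.02 for Igha. Their median was -0.46, against -0.01 over all tested genes, of which 52.9% lay below 0. The NR and Vehicle groups did not overlap for 1 of the 10, Ighm. Over all tested genes, the NR group lay entirely below the Vehicle group in 0.878% and entirely above it in 0.769%. Because the group was chosen on this contrast, nothing is read from these counts. The plot of the 10 genes by mouse shows how far the remaining genes overlapped.

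**Figure D1:**
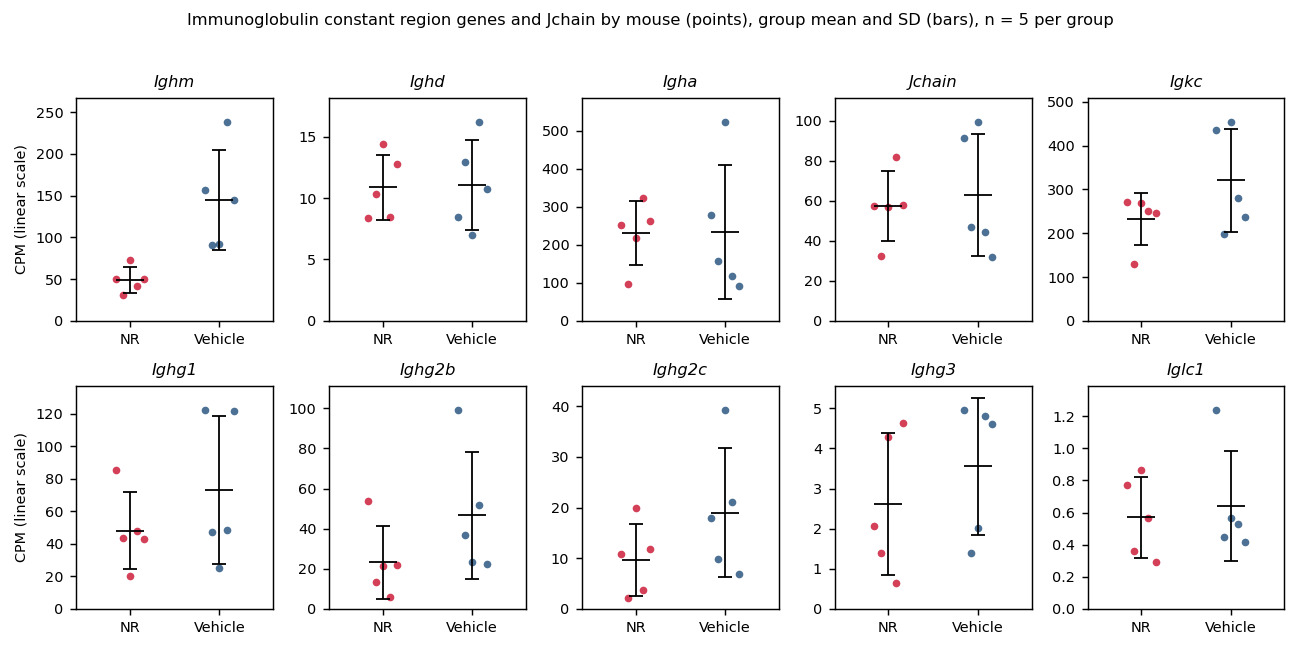
Level of each gene (CPM, linear axis from 0, a separate scale per panel) in the 5 NR and 5 Vehicle mice. Points are mice, and bars give the group mean and SD. Ighm is the panel in which every NR mouse, at most 73.2 CPM, lies below every Vehicle mouse, at least 91.1 CPM.

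Ighm, the heavy chain of IgM, was at 50.1, 30.4, 73.2, 41.7 and 50.6 CPM in NR mice 1 to 5 and at 157, 91.1, 92.5, 238 and 145 CPM in Vehicle mice 1 to 5. The group means were 49.2 ± 15.7 and 145 ± 60.3 CPM (SD, n = 5 each), and the level in NR mice was 2.94-fold lower in the fit (log2 fold change -1.56 ± 0.29, SE). The highest NR mouse was NR 3 at 73.2 CPM and the lowest Vehicle mouse was Vehicle 2 at 91.1 CPM, so the gap between the groups was narrow next to the spread of the Vehicle mice. A fold change this low or lower was found in 0.153% of the tested genes. Because Ighm was chosen on this contrast, nothing is read from that share. These values rest on 680 to 5409 reads per mouse. The counts do not separate the secreted and the membrane form of the chain, and in bulk tissue fewer cells of a type and less mRNA per cell cannot be told apart.

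Ighd, the heavy chain of IgD on the surface of naive B cells, was at 8.38, 10.4, 14.4, 8.43 and 12.8 CPM in NR mice 1 to 5 and at 8.44, 12.97, 7.00, 16.2 and 10.7 CPM in Vehicle mice 1 to 5. The groups overlapped over nearly their whole ranges, with means of 10.9 ± 2.67 and 11.1 ± 3.67 CPM. The log2 fold change was -0.03 ± 0.24. Ighd varied less between mice than any other of the 10 genes, by 2.32-fold from the lowest to the highest mouse, while Ighm varied by 7.84-fold.

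The number of Ighm reads per Ighd read was 5.98, 2.93, 5.08, 4.95 and 3.95 in NR mice 1 to 5. In Vehicle mice 1 to 5 it was 18.6, 7.02, 13.2, 14.7 and 13.5. The means were 4.58 ± 1.17 and 13.4 ± 4.17, and the groups did not overlap. This ratio does not depend on the library size, but it contains the Ighm counts on which the group of genes was chosen. The summed level of 18 mature B cell genes overlapped between the groups, as most tested genes did. It was 70.8 to 164 CPM in NR mice and 77.2 to 189 CPM in Vehicle mice.

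**Figure D2:**
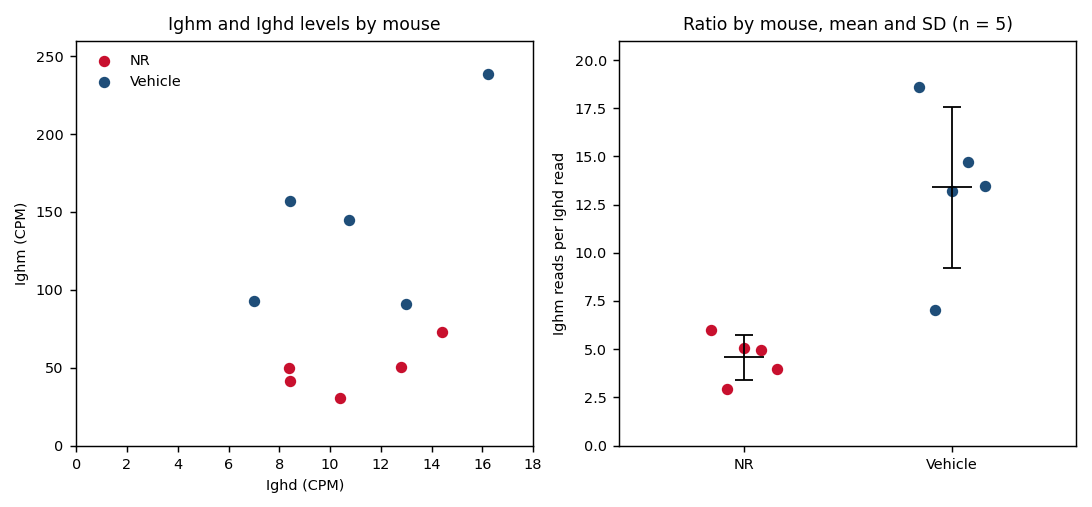
Left, Ighm against Ighd in each mouse (CPM, linear axes from 0). Right, Ighm reads per Ighd read by mouse (points) with the group mean and SD (bars). The NR mice lie between 2.93 and 5.98 and the Vehicle mice between 7.02 and 18.6, while along the Ighd axis the groups overlap.

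Igha, the heavy chain of the IgA that protects mucosal surfaces, was at 251, 96.2, 218, 324 and 262 CPM in NR mice 1 to 5 and at 278, 158, 524, 119 and 91.8 CPM in Vehicle mice 1 to 5. The lowest and the highest of the 10 mice were both Vehicle mice, and the means of 230 ± 84.1 and 234 ± 177 CPM were close. The log2 fold change of -0.02 ± 0.46 turned positive in some settings, up to 0.53 without Vehicle mouse 3. Igha was the most read heavy chain gene in all 5 NR mice and in 3 of the 5 Vehicle mice.

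Jchain, the joining chain, was at 57.2, 32.1, 57.1, 81.7 and 57.7 CPM in NR mice 1 to 5 and at 91.3, 47.0, 99.4, 44.4 and 31.6 CPM in Vehicle mice 1 to 5. Its groups overlapped, with means of 57.1 ± 17.5 and 62.7 ± 30.5 CPM and a log2 fold change of -0.14 ± 0.33. NR mouse 4 and Vehicle mouse 3, which had the most Igha in their groups, also had the most Jchain. There were 0.259 ± 0.05 Jchain reads per Igha read in NR mice and 0.307 ± 0.07 in Vehicle mice.

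The 4 IgG genes had lower means in NR mice, and the groups overlapped for each. Ighg1, the most abundant of them, was at 85.5, 43.6, 20.5, 47.9 and 43.1 CPM in NR mice 1 to 5 and at 122, 47.3, 25.2, 48.5 and 122 CPM in Vehicle mice 1 to 5. Its log2 fold change was -0.60 ± 0.46. NR mouse 1 and Vehicle mice 1 and 5 stood above the others.

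Ighg2b was at 53.7, 13.6, 21.2, 5.90 and 21.7 CPM in NR mice 1 to 5 and at 99.3, 36.6, 23.2, 51.9 and 22.1 CPM in Vehicle mice 1 to 5. Ighg2c was at 10.7, 2.10, 19.8, 3.67 and 11.8 CPM in NR mice and at 17.9, 9.92, 39.3, 21.1 and 6.83 CPM in Vehicle mice, in the same order. These genes had the next largest log2 fold changes after Ighm, -1.01 ± 0.56 and -0.99 ± 0.60, with wide standard errors. They also varied the most between mice, by 16.8-fold for Ighg2b and 18.7-fold for Ighg2c. NR mouse 1 and Vehicle mouse 1 had the most Ighg2b of their groups, and NR mouse 3 and Vehicle mouse 3 had the most Ighg2c.

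Ighg3 was the lowest of the IgG genes, with 0.655 to 4.63 CPM in NR mice and 1.39 to 4.96 CPM in Vehicle mice, and its log2 fold change was -0.45 ± 0.52. It had only 15 to 109 reads per mouse. The IgG genes together were at 83.6 ± 39.3 CPM in NR mice and 142 ± 63.0 CPM in Vehicle mice, again with overlap. Among IgG reads, Ighg1 made up 31.1% to 82.4% in NR mice and 28.1% to 78.4% in Vehicle mice, so that the IgG makeup differed more between mice of one group than between the groups.

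Igkc, the constant region of the kappa light chain, was at 271, 129, 270, 250 and 247 CPM in NR mice 1 to 5 and at 437, 197, 455, 280 and 237 CPM in Vehicle mice 1 to 5. The NR mice other than NR 2 were close to each other, and Vehicle mice 1 and 3 stood above all the rest. The means were 233 ± 59.3 and 321 ± 117 CPM, with a log2 fold change of -0.46 ± 0.26. Iglc1, a lambda light chain constant region, was near the limit of detection with 5 to 25 reads per mouse, and it was at 0.289 to 0.865 CPM in NR mice and 0.418 to 1.24 CPM in Vehicle mice (log2 fold change -0.14 ± 0.39).

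Light chain reads followed heavy chain reads closely. There were 0.588, 0.654, 0.725, 0.580 and 0.607 Igkc reads per heavy chain read in NR mice 1 to 5 and 0.635, 0.553, 0.637, 0.559 and 0.590 in Vehicle mice 1 to 5. Lambda constant reads, over Iglc1 and the non-members Iglc2, Iglc3 and Iglc4, made up 2.34% ± 0.651 of light chain constant reads in NR mice and 1.93% ± 1.21 in Vehicle mice. Iglc2 was the most abundant lambda gene (4.27 ± 2.25 and 3.56 ± 1.14 CPM, log2 fold change 0.26 ± 0.36, edgeR adjusted p = 0.818). Iglc2 and Iglc3 had 96.5% of their coding bases in common. Of the 403 windows of 50 bases in Iglc3, 22.3% occurred in another gene, 43 of them in Iglc2 and 47 in 2010309G21Rik. The division of reads among these genes is therefore uncertain. Ighe, the heavy chain of IgE, had 0 to 5 reads and Iglc4 had 0 to 2 reads per mouse, and both were below the filter.

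The 10 genes together were at 791, 359, 699, 765 and 711 CPM in NR mice 1 to 5 and at 1218, 602, 1268, 825 and 672 CPM in Vehicle mice 1 to 5. The means were 665 ± 175 and 917 ± 309 CPM with overlapping groups, and NR mouse 2 was the lowest of all. Reads on the variable segments, without the diversity and joining segments, were at 86.2 ± 27.6 CPM in NR and 149 ± 58.0 CPM in Vehicle mice, also overlapping. There were 7.25 ± 1.33 constant region reads per variable segment read in NR mice and 6.02 ± 1.30 in Vehicle mice.

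The makeup of the heavy chain reads differed widely from mouse to mouse. Ighm took 10.9%, 15.4%, 19.7%, 9.66% and 12.4% of them in NR mice 1 to 5 and 22.8%, 25.5%, 12.97%, 47.7% and 35.9% in Vehicle mice 1 to 5. Unlike the level, the share overlapped between the groups, since Vehicle mouse 3 was below NR mice 2 and 3. The means were 13.6% ± 4.02 and 29.0% ± 13.3. Counting error was small beside this, with a 95% Wilson interval of 9.10% to 10.3% for NR mouse 4 and of 46.8% to 48.6% for Vehicle mouse 4, and these intervals cover counting error only.

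Igha took 54.4%, 48.7%, 58.7%, 74.9% and 64.4% of heavy chain reads in NR mice 1 to 5 and 40.4%, 44.2%, 73.5%, 23.8% and 22.8% in Vehicle mice 1 to 5. Vehicle mice 4 and 5 were those in which Ighm and not Igha was the most read isotype. IgG took 23.0% ± 8.47 in NR and 27.7% ± 10.2 in Vehicle mice, and Ighd 3.21% ± 1.43 and 2.35% ± 1.19. The shares add up to the whole in each mouse, so a lower Ighm share is matched by higher shares of other isotypes, as the plot of isotype shares shows.

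**Figure D3:**
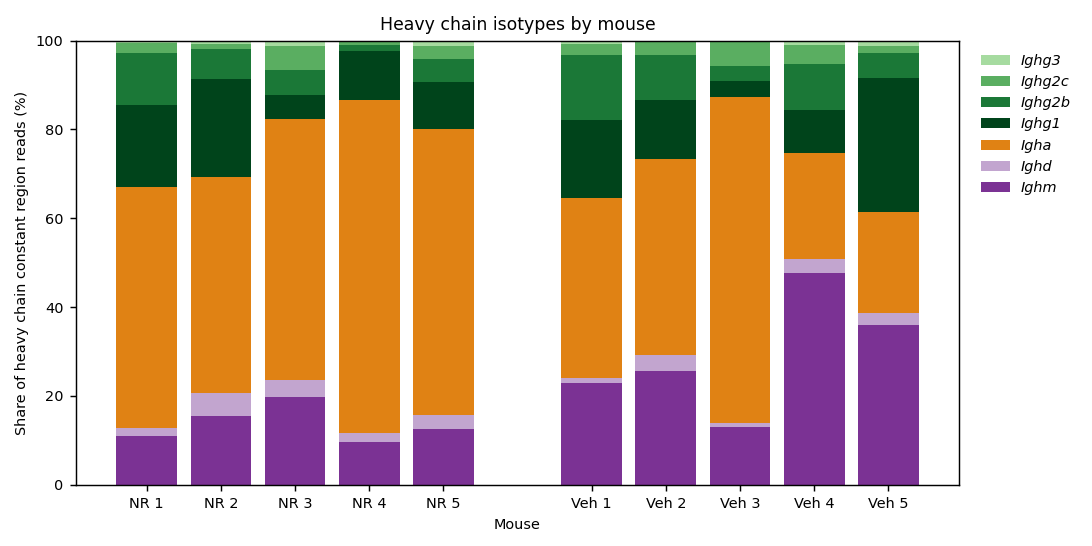
Share of heavy chain constant region reads (percent, stacked to the whole) taken by each of the 7 heavy chain genes in each mouse. Igha is the largest block in 8 mice, and Ighm, at the bottom, is the largest in Vehicle mice 4 and 5 with 47.7% and 35.9%.

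The order of the levels was not used to choose the genes and was compared between genes per kilobase of the deposited gene length, over all 10 mice. Igkc was the highest at 521 ± 186 CPM per kilobase (SD, n = 10), followed by Igha at 87.0 ± 49.0, Ighm at 51.4 ± 34.6, Jchain at 23.8 ± 9.38 and Ighg1 at 23.4 ± 14.2. Below these were Ighg2b at 13.04 ± 10.2, Ighg2c at 10.8 ± 8.23, Ighd at 5.78 ± 1.59, Iglc1 at 1.33 ± 0.627 and Ighg3 at 1.23 ± 0.682 CPM per kilobase. The lowest and highest of the genes thus differed widely in level, as the plot on a log axis shows.

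**Figure D4:**
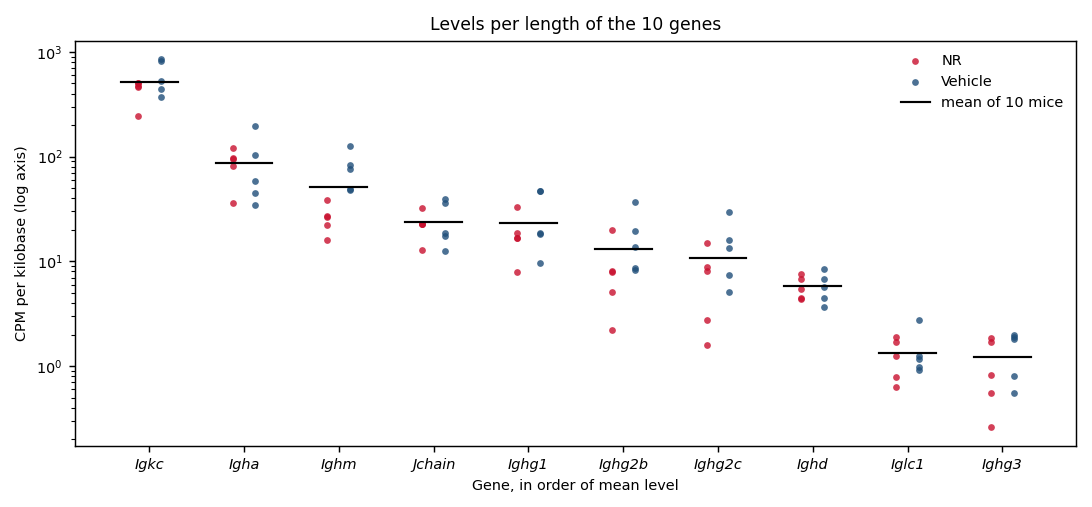
CPM per kilobase of deposited gene length (log axis) for the 10 genes in order of their mean over 10 mice (black lines). Points are mice, coloured by group. Igkc, at 521, stands apart at the top, and Iglc1 and Ighg3, at 1.33 and 1.23, lie together at the bottom.

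Of the 9 neighbouring pairs in this order, 4 differed in an exact two-sided paired permutation test with Benjamini-Hochberg adjustment over the pairs. Igkc was above Igha in 10 of 10 mice (mean log2 difference 2.69, adjusted exact p = 0.00879), and Ighd was above Iglc1 in 10 of 10 (1.80, adjusted exact p = 0.00879). Ighm was above Jchain in 9 of 10 mice (0.92, adjusted exact p = 0.0396) and Ighg1 above Ighg2b in 8 of 10 (0.94, adjusted exact p = 0.0234). The remaining 5 pairs were not set apart beyond the spread between mice on the deposited length, with adjusted exact p from 0.158 for Igha above Ighm to 0.689 for Jchain above Ighg1. The pairs with Ighm pool NR and Vehicle mice, and the genes were chosen because Ighm differed between these groups. Their results describe the 10 mice together and not either group. Ighm reads per Igha read were 0.235 ± 0.088 in NR mice and 0.979 ± 0.771 in Vehicle mice, with overlap.

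The gene length used changed several places in this order. The deposited length of Igha, 2668 bases, covers the membrane form, while the secreted form annotated in GENCODE has 1100 bases. With the length of the secreted form, a setting chosen after the data were seen, Igha was above Ighm by 1.76 on the log2 scale (adjusted exact p = 0.0176), Ighm was no longer set apart from Jchain (0.42, adjusted exact p = 0.338), and Iglc1 minus Ighg3 was -0.76 (adjusted exact p = 0.0293), with Ighg3 then the higher. Igkc above Igha held on the secreted length (1.42, adjusted exact p = 0.00879), but not when CPM was left undivided by length (0.37, adjusted exact p = 0.103). Ighg2b was set apart above Ighg2c in either setting, by 1.26 on the secreted length (adjusted exact p = 0.0176) and by 1.27 undivided by length (adjusted exact p = 0.0220). Undivided, Igha was also above Ighm (1.33, adjusted exact p = 0.0387), Iglc1 was below Ighg3 (-1.55, adjusted exact p = 0.00879), and Ighm was not set apart from Jchain (0.52, adjusted exact p = 0.264). Ighg1 above Ighg2b and Ighd above Iglc1 held in either setting. Ighm above Jchain also lost its call when any one mouse other than NR 4 was left out, with adjusted exact p from 0.0527 to 0.0791.

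The spread between mice within a group was then compared across genes, on log2 CPM centred on the group means so that the difference between the groups did not enter. The switched isotypes, the summed reads of Igha and the 4 IgG genes, went together with Jchain (Pearson's r = 0.93, exact permutation p = 0.00507, adjusted p = 0.0659, Spearman's rho = 0.93, exact permutation p = 0.00444, adjusted p = 0.0578). They also went together with Igkc (r = 0.93, exact permutation p = 0.0125, adjusted p = 0.0813, rho = 0.92, exact permutation p = 0.0100, adjusted p = 0.065). None of the 13 relations computed passed an adjusted p of 0.05, although 2 of them had an unadjusted exact p under it. NR mouse 2 and Vehicle mouse 3 were the mice farthest from the median switched sum of all 10 mice, taken before centring. Without them, r was 0.85 with Jchain (exact permutation p = 0.0851) and 0.81 with Igkc (exact permutation p = 0.174), so that part of both relations rests on these mice.

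The r of Ighm was 0.54 with Ighd (rho = 0.50, exact permutation p = 0.157 and 0.176, adjusted p = 0.539 and 0.619) and 0.34 with Igkc (rho = 0.30, exact permutation p = 0.382 and 0.434, adjusted p = 0.633 and 0.806). NR mouse 2 and Vehicle mouse 4 were farthest from the median Ighm before centring, so the difference between the groups entered this choice. Without these 2 mice, r was 0.33 with Ighd and 0.19 with Igkc. With 1 mouse left out, r ranged from 0.28 (without Vehicle mouse 4) to 0.76 (without Vehicle mouse 2) with Ighd and from 0.0430 (without NR mouse 2) to 0.65 (without Vehicle mouse 3) with Igkc. With the mean level of the mature B cell list r was 0.44 (rho = 0.44, exact permutation p = 0.234 and 0.238, adjusted p = 0.539 and 0.619), 0.51 without these 2 mice, 0.23 without NR mouse 3 and 0.80 without Vehicle mouse 2. With the plasma cell list r was -0.03 (rho = 0.08, exact permutation p = 0.949 and 0.841, adjusted p = 0.949 and 0.916), -0.11 without them, -0.38 without NR mouse 2 and 0.30 without Vehicle mouse 2. The relations of Ighm with the mature B cell, B precursor and plasma cell lists were above 0 among the NR mice and below 0 among the Vehicle mice, and groups of 5 are too small for a correlation of their own. Whether the relations of Ighm differ from those of the switched isotypes was not tested.

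**Figure D5:**
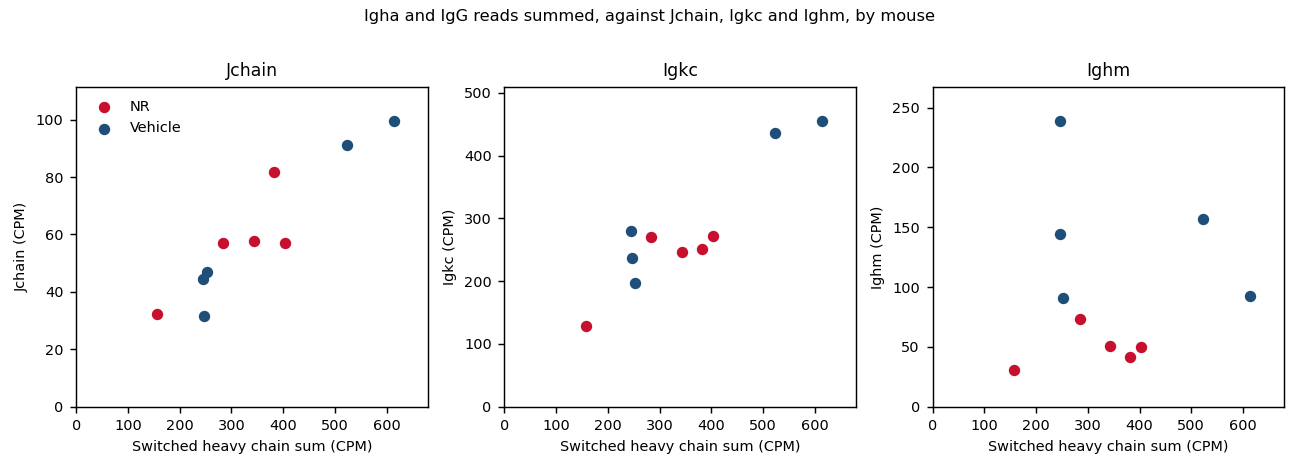
Summed level of Igha and the 4 IgG genes (CPM, x axis) against Jchain, Igkc and Ighm (CPM, y axes) in each mouse, all axes linear from 0. Jchain and Igkc increase with the switched sum in both groups. On log2 CPM centred on the group means, which is not plotted, r was 0.93 for each (adjusted exact permutation p = 0.0659 and 0.0813). In the panel of Ighm the NR and Vehicle mice separate by height, which is the contrast on which the genes were chosen.

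The remaining relations were with lists of cell types. For the switched isotypes r was 0.45 with the plasma cell list, -0.08 with the mature B cell list, 0.27 with the neutrophil list and 0.26 with the T cell list (rho = 0.49, -0.08, 0.34 and 0.22). Their exact permutation p was 0.237, 0.814, 0.433 and 0.438 for r (adjusted p = 0.539, 0.882, 0.633 and 0.633) and 0.193, 0.845, 0.380 and 0.549 for rho (adjusted p = 0.619, 0.916, 0.806 and 0.891). Without NR mouse 2 and Vehicle mouse 3, r was 0.37, -0.24, 0.37 and -0.11. Without NR mouse 2 alone, r was 0.20 with the plasma cell list, and without Vehicle mouse 2 alone it was 0.80. The relations with the mature B cell, neutrophil and T cell lists were positive among the NR mice and negative among the Vehicle mice, so the pooled values combine groups that ran in opposite directions. The difference between the groups in these relations was not tested.

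For Ighm r was 0.11 with the B precursor list, 0.40 with the neutrophil list and -0.29 with the erythroid list (rho = 0.19, 0.02 and -0.09). The exact permutation p was 0.779, 0.249 and 0.527 for r (adjusted p = 0.882, 0.539 and 0.684) and 0.617, 0.974 and 0.827 for rho (adjusted p = 0.891, 0.974 and 0.916). Without NR mouse 2 and Vehicle mouse 4, r was 0.44, 0.21 and 0.49, so the sign of the erythroid relation rests on these mice. With the B precursor list r ran from -0.23 without NR mouse 2 to 0.67 without Vehicle mouse 4, and with the neutrophil list from 0.0353 without NR mouse 2 to 0.66 without Vehicle mouse 2.

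Over the same centred values, the genes outside the immunoglobulin loci whose pattern over the 10 mice was most like that of Ighm, among 18269 searched, were Mtf1 (r = 0.94), Gm10045 (0.93), Washc4 (0.92), Utrn (0.92) and Kif3b (0.92). The most like the switched sum were Rcn3 (r = 0.97), Pdlim2 (0.96), Dlx6os1 (0.93), Casz1 (0.93) and Lilra5 (0.92). These are the top of a search over many genes in few mice and are given as a description. Mtf1 varied only from 21.6 to 26.2 CPM and Rcn3 from 58.0 to 93.5 CPM, far less than the immunoglobulin genes.

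Genes outside the 10 were taken from 11 gene lists, on antibody production and on other cells of the tissue, and tested in the fit over all genes. Of 132 listed genes 124 were tested, and 3 of these were higher in NR mice and 10 were lower at an unadjusted p of 0.05. Over all 18329 tested genes, 4.83% were higher and 4.88% were lower at this threshold. Of the 10 lower genes 8 were cochlear, and 1 of the 3 higher genes was from the neutrophil list. None passed an adjusted p of 0.05 in edgeR (smallest 0.423) or in DESeq2. Among 15 tested plasma cell genes 0 were higher and 1 was lower. That gene was Ell2, an elongation factor that favours the secreted form of heavy chain mRNA, at 32.5 ± 3.55 CPM in NR and 38.2 ± 5.21 CPM in Vehicle mice (log2 fold change -0.23 ± 0.10, edgeR adjusted p = 0.4997). The median of the list was -0.16, with 11 of 15 below 0. Xbp1, the transcription factor of the secretory program and the most abundant of the list, was at 143 ± 17.4 and 160 ± 30.7 CPM (log2 fold change -0.16 ± 0.13, edgeR adjusted p = 0.692).

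Of 18 mature B cell genes, all tested, 0 were higher and 0 lower at an unadjusted p of 0.05 in edgeR, and 0 passed an adjusted p of 0.05 in DESeq2. Their median log2 fold change was -0.16, with 14 of 18 below 0. Cd37, a tetraspanin of B cells and the most abundant of them, was at 30.2 ± 8.51 CPM in NR mice and 29.3 ± 9.01 CPM in Vehicle mice. Ighd and the mature B cell genes overlapped between the groups, whereas Ighm was chosen because it did not. Overlap was the usual case, since the NR group lay entirely below the Vehicle group in 0.878% of tested genes and entirely above it in 0.769%. Nothing is therefore read from this contrast. No gene of the mature B cell or plasma cell list was at 0 in all mice. The summed plasma cell list, 566 to 619 CPM in NR and 557 to 708 CPM in Vehicle mice, is carried by genes such as Xbp1 that other cells also express.

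Of 11 tested B precursor genes 1 was higher and 0 lower, the higher one being Erg, a transcription factor that endothelial cells also express (log2 fold change 0.33 ± 0.11, edgeR adjusted p = 0.434). The median of the list was -0.04, with 7 of 11 below 0, so Erg went against most of the list. Akap12, a scaffold protein, was the most abundant at 368 ± 24.5 and 370 ± 27.3 CPM. Of 10 genes of class switching and the germinal center 0 were higher and 1 was lower, Msh6 of DNA mismatch repair (log2 fold change -0.19 ± 0.07, edgeR adjusted p = 0.476), and the median was -0.01. Bcl6, a repressor needed in the germinal center, was the most abundant at 43.5 ± 3.71 and 45.6 ± 7.69 CPM.

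Of 10 tested genes of plasma cell survival signals 1 was higher, Il6ra, a receptor chain for interleukin 6 (log2 fold change 0.20 ± 0.08, edgeR adjusted p = 0.476), and 0 were lower, with a median of 0.03. Cxcl12, the chemokine of the marrow niche, was at 394 ± 90.8 and 390 ± 111 CPM. Of 9 tested immunoglobulin receptor and transport genes 0 were higher and 0 lower (median 0.16), and Fcgrt, the neonatal Fc receptor that protects IgG from breakdown, was at 134 ± 10.4 and 140 ± 3.04 CPM.

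Markers of other cells that the tissue could hold were counted in the same way. Of 11 tested T cell genes 0 were higher and 0 lower (median 0.29, with 8 of 11 above 0), with a summed level of 16.4 to 40.0 CPM in NR and 21.6 to 37.7 CPM in Vehicle mice. Cd4 was the most abundant at 5.20 ± 1.38 and 6.84 ± 2.72 CPM and went against most of the list (log2 fold change -0.39 ± 0.27, edgeR adjusted p = 0.652). Of 13 tested neutrophil genes 1 was higher and 0 lower (median 0.44), and the summed level was 1540 to 5186 CPM and 1542 to 6020 CPM. The higher gene was Retnlg, a secreted protein of neutrophils (log2 fold change 0.75 ± 0.32, edgeR adjusted p = 0.499). S100a9, a calcium-binding protein, was the most abundant at 929 ± 335 and 675 ± 233 CPM, and Stfa1 was at 0 in all mice.

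Of 12 erythroid genes, all tested, 0 were higher and 0 lower, although all 12 log2 fold changes were below 0 (median -0.41), and the summed level was 7603 to 13401 CPM in NR and 4282 to 18532 CPM in Vehicle mice. Of 14 cochlear genes, all tested, 0 were higher and 8 were lower (median -0.59), and all 14 were below 0. The largest were Tectb and Tecta of the tectorial membrane (log2 fold change -1.43 ± 0.56 and -1.24 ± 0.49, edgeR adjusted p = 0.476 for each) and Otoa, an inner ear matrix protein (-0.996 ± 0.30, edgeR adjusted p = 0.423). The summed cochlear level was 4167 to 6248 CPM in NR and 4588 to 8364 CPM in Vehicle mice. As a mean log2 CPM, the cochlear genes were at 5.89 ± 0.36 in NR and 6.47 ± 0.66 in Vehicle mice, with overlap. NR mouse 2, which had the lowest Ighm, had the highest cochlear level of the NR mice, 6.41. Vehicle mouse 4, which had the highest Ighm, went the other way, with the highest cochlear level of all mice, 7.29. The part of tissue makeup in the level of Ighm was not tested.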

How the data were processed

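RNA from cochlear tissue of 5 NR and 5 Vehicle mice was sequenced by Novogene, 1 library per mouse. The authors deposited raw read counts per gene, made with STAR version 2.6.1d on mm10 and featureCounts version 1.5.0 run with default settings and so without regard to strand. The annotation release is not given in the sources used here. The gene length in the files is in bases, as deposited. Reads were not reprocessed.

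Genes were filtered with filterByExpr, scaled by TMM and tested with the quasi-likelihood test of edgeR version 4.0.16 in R version 4.3.3, without covariates, two-sided, with Benjamini-Hochberg adjustment over the 18329 genes that passed. CPM is the count per 1000000 of the TMM-scaled library, and log2 CPM has a prior count of 2. Of these genes, those that make up the group described here have fold changes and standard errors only. Levels per kilobase were compared on log2 with a pseudocount of 0.5 by flipping signs in each mouse. Correlations were tested by permuting mice within groups in all ways. Intervals of shares are 95% Wilson intervals. The edgeR test was checked on simulated data.

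The genes and the gene lists were chosen with earlier results of these data known. The genes named are all members, from each list its most abundant gene and at most 3 genes per direction, by size of change, at an unadjusted p of 0.05, and the 5 genes most like Ighm and most like the switched sum. No 2 libraries agreed within counting noise in the 45 pairs compared. The alternatives were DESeq2 version 1.42.0, its size factors, library totals, all genes with at least 1 read, the replicate number as a block, other gene lengths and pseudocounts, uncentred and rank correlations, and leaving out each mouse. Heavy chain coding sequences came from the GENCODE transcripts of the same build.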

Additional observations from a re-analysis of the deposited data

Results flagged for a closer look

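A test for 1 mouse standing apart in its group marked 5 of 32 sets of values, where chance marks about 1 in 20. In 4 of them the mouse was NR mouse 2, which was low. Its log2 CPM was 7.01 for Igkc, against 7.95 to 8.08 in the other NR mice, and 7.02 for the summed light chain genes, against 7.95 to 8.09. For the summed heavy chain genes it was 7.63, against 8.54 to 8.85, and for all 10 genes together it was 8.49, against 9.45 to 9.63. These sets share reads and are not independent of each other. Other lists moved with these values in NR mouse 2. Its mean log2 CPM was 5.84 for the neutrophil list, against 7.47 to 7.60 in the other NR mice, and 0.17 for the T cell list, against 0.66 to 1.65. It was also the lowest NR mouse for the mature B cell list (1.45) and the B precursor list (1.92) and the highest for the cochlear list (6.41), and the part of tissue makeup in its immunoglobulin levels was not tested. Ighm in the same mouse, at 30.4 CPM, was the lowest of the 10 mice. In the fifth set, Iglc1 in Vehicle mouse 1 had a log2 CPM of 0.41, against -0.97 to -0.60 in the other Vehicle mice, on 25 reads.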

How the results depend on the processing

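The log2 fold change of Ighm was between -1.73 and -1.30 in 15 alternatives and was smallest without Vehicle mouse 4. With the replicate number as a block it was -1.52. Over all tested genes the numbers were not found to pair the mice, since same-numbered mice had correlations from -0.22 to 0.17. With the block, the standard error was lower for Ighg1 (0.21 against 0.46) and Igkc (0.13 against 0.26). It was higher for Ighd (0.26 against 0.24) and Ighg3 (0.54 against 0.52). Whether the numbers pair the mice for the immunoglobulin genes was not tested. The fold changes of Ighg1, Ighg2b, Ighg2c, Ighg3 and Igkc were below 0 in 15 of 15 alternatives, those of Iglc1 in 13, Jchain in 12, Igha in 11 and Ighd in 9. The widest ranges were -1.57 to -0.52 for Ighg2b and -1.43 to -0.52 for Ighg2c. The difference in the Ighm share of heavy chain reads, -15.4 percentage points, was between -19.4 and -10.7 when 1 mouse was left out.

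Counts of genes moved more. With 1 mouse left out, 669 to 1414 genes were higher (1414 without NR mouse 2) and 484 to 1059 lower (484 without NR mouse 3, 521 without NR mouse 1, 558 without Vehicle mouse 3) at an unadjusted p of 0.05, and 0 to 1 passed an adjusted p of 0.05 (1 without NR mouse 2). With all genes of at least 1 read, 1414 were higher, and DESeq2 called 102 at an adjusted p of 0.05. Of the listed genes, 7 were higher with DESeq2, 6 with all genes of at least 1 read and 5 with the replicate block. Leaving out 1 mouse gave 2 to 18 listed genes higher (18 without NR mouse 2, 8 without Vehicle mouse 2) and 4 to 14 lower (4 without NR mouse 1, 5 without Vehicle mouse 3). Ell2 and Retnlg missed an unadjusted p of 0.05 with the replicate block. With 1 mouse left out, Ell2, Msh6, Il6ra, Retnlg, Tecta and Tectb each missed it for at least 1 mouse, whereas Erg and Otoa did not. The cause of these shifts was not tested. Uncentred correlations gave 2 relations at an adjusted p of 0.05, and leaving out 1 mouse gave 0 to 1 (1 without NR mouse 1).

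Some values near 0 changed sign. Iglc1 minus Ighg3 was -1.55 without division by length and -0.76 with the length of the secreted form. With that length Jchain minus Ighg1 was -0.26 and Ighg2c minus Ighd was -0.41. Jchain minus Ighg1 was between -0.0546 and 0.37 with 1 mouse left out. The r of Ighm with the plasma cell list was 0.0829 as rho and 0.24 uncentred. Uncentred, r of Ighm was -0.0701 with the neutrophil list and 0.0182 with the erythroid list, and without the 2 farthest mice it was 0.49 with the erythroid list and -0.11 for the switched sum with the T cell list. With 1 mouse left out, r of Ighm lay between -0.38 and 0.30 with the plasma cell list, -0.51 and 0.35 with the erythroid list and -0.23 and 0.67 with the B precursor list. For the switched sum it lay between -0.16 and 0.51 with the T cell list, -0.44 and 0.76 with the neutrophil list and -0.58 and 0.31 with the mature B cell list. The log2 fold change of Akap12 was 0.0045 with all genes of at least 1 read and that of Hbb-bs 0.0438 with the replicate block. With 1 mouse left out, log2 fold changes were -0.0435 to 0.46 for Iglc2, -0.0845 to 0.22 for Cd37, -0.0458 to 0.0301 for Akap12, -0.12 to 0.0206 for Bcl6, -0.0910 to 0.15 for Cxcl12 and -0.28 to 0.20 for Hbb-bs.

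Depth limits Iglc1, Ighg3, Ighe and Iglc4, which rest on few reads per mouse.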
